A study of Mus musculus with 9 samples.

Results

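The genes described here are 40 members of the interferon response and of MHC class I antigen presentation, followed across 9 tumour libraries of 3 mouse glioblastoma models. They were taken by name, as well-known interferon-stimulated genes together with the genes that load and display peptides on MHC class I. The rule itself used no measured value, but the list was chosen with earlier results of these data known. All 40 were found among the 46517 gene identifiers of the deposited counts, and all 40 were among the 17947 genes with enough reads to test. They comprise 4 regulators of transcription, 5 sensors of foreign nucleic acid, 4 IFIT genes, 4 OAS genes, Isg15 with its protease Usp18, 13 other antiviral effectors, 2 guanylate-binding proteins and 6 genes of MHC class I presentation.

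RNA was sequenced from whole glioblastoma tissue of Synapsin-cre, NG2-creERTM and Nestin-creERT2 mice, with 3 samples per model. The models share a mixed strain background, and each is named for the Cre recombinase line used. The Synapsin promoter is active in neurons, the NG2 (Cspg4) promoter in oligodendrocyte precursor cells and pericytes, and the Nestin promoter in neural stem and progenitor cells. ERTM and ERT2 are tamoxifen-dependent forms of Cre. The series asks how tumours started from different cells of origin compare. Driver alleles, tumour site, age and sex are not stated in the labels. The samples of a model are not said to come from separate animals, and p-values therefore reflect the variation between samples, part of which may be technical.

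Interferons are secreted proteins, and type I and type II interferons act through separate receptors. Cells release type I interferons when they sense viral or displaced nucleic acid. Type I signalling activates a complex that holds Stat2 and Irf9 and binds a short DNA element, the interferon-stimulated response element (ISRE), to switch on antiviral genes. Type II signalling acts through another short element, the gamma-activated site (GAS). MHC class I molecules show peptides cut by the proteasome to CD8+ T cells, and interferon raises their output. In brain tumours, microglia and macrophages as well as tumour cells can carry both programmes.

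The sequences below are shown because they hold elements of the kind that interferon-activated factors bind. Each is the last 160 bases before the RefSeq start, 5′ to 3′ on the gene's strand (GRCm38.p6). Capitals mark a match to the ISRE core GAAANNGAAA or the GAS core TTCNNNGAA on either strand, where N is any base. Isg15, Ifit1, Ifit3 and Gbp2 stand for the interferon-stimulated genes, Irf1 for a gene with a GAS, and Psmb8 and B2m for MHC class I presentation.
Isg15: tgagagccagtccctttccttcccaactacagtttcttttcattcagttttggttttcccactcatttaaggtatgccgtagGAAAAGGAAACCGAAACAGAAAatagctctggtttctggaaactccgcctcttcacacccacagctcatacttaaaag
Ifit1: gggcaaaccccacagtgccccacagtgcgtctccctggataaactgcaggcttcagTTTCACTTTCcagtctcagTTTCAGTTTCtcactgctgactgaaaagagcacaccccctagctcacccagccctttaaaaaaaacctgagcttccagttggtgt
Ifit3: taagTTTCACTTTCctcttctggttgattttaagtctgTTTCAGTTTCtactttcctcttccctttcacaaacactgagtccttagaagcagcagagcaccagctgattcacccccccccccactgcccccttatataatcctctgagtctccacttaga
Gbp2: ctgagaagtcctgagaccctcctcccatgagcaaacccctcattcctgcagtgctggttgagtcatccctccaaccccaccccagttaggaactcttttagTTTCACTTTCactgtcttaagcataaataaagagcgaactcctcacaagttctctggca
Irf1: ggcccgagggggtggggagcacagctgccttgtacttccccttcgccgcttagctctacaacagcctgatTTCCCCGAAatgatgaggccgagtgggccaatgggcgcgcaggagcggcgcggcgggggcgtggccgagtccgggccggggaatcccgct
Psmb8: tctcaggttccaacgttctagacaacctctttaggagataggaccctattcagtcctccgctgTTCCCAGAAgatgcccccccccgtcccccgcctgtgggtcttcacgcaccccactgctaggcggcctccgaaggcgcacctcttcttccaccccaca
B2m: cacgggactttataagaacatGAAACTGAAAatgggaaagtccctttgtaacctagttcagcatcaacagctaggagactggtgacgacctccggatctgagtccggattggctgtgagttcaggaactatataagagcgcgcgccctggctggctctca
Isg15 (chr4:156200819-156200978, minus strand) held 3 ISRE matches that overlapped one another. The stretches of Ifit1 (chr19:34640729-34640888, plus strand) and Ifit3 (chr19:34583369-34583528, plus strand) held 2 ISRE matches each. Gbp2 (chr3:142620503-142620662, plus strand) and B2m (chr2:122147527-122147686, plus strand) held 1 ISRE match each. Irf1 (chr11:53769854-53770013, plus strand) and Psmb8 (chr17:34198035-34198194, plus strand) held 1 GAS match each. RefSeq promoter windows, which run from 250 bases before to 50 after the start, were found for 31 of the 40 members. An ISRE match lay in the windows of 17 of these 31 members, against 3.99% of 27025 symbols with a window. A GAS match lay in 8 of the 31 members, against 9.55% of symbols. Among the 6 genes of MHC class I presentation, 1 had an ISRE match and 1 a GAS match in these windows. The matches describe letters only and do not show binding.

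The libraries held 23557398 to 41099967 reads counted in genes. Synapsin-cre replicate 1 stood apart from the other 8 libraries in its cell markers. The sum of 5 neuronal markers was 3634 CPM (counts per 1000000 reads in genes, each library's total adjusted by its TMM factor) there, against 29.9 to 529.8 CPM elsewhere. The sum of 4 markers of dividing cells was 63.7 CPM there, against 831.8 to 1814 CPM elsewhere, so the markers of dividing tumour tissue were low in that library. Each comparison that involves Synapsin-cre is therefore given with and without this library.

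Synapsin-cre replicate 1 held the highest level of 34 of the 40 members, against 25.0% of all genes tested. The level in that library was a median of 5.87 times the median of the other 8 libraries over the members, with a range of 0.986 to 40.4 times, and 1.03 times over all genes. The next most frequent holder of the highest level was Nestin-creERT2 replicate 2, with 4 members, against 9.67% of all genes tested. All 4 were in MHC class I presentation. Ifi27 was highest in Synapsin-cre replicate 2 and Irf1 in NG2-creERTM replicate 3. Across the other 8 libraries NG2-creERTM replicate 3 held the highest level of 22 members, against 9.36% of all genes tested. None of these 22 belonged to MHC class I presentation. The fold between the highest and the lowest library was a median of 15.6 over the members with all 9 libraries and 7.19 with 8, against 4.30 and 3.33 over the genes tested that had reads in each library. The heat map of the 40 members shows these library patterns.

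**Figure D1:**
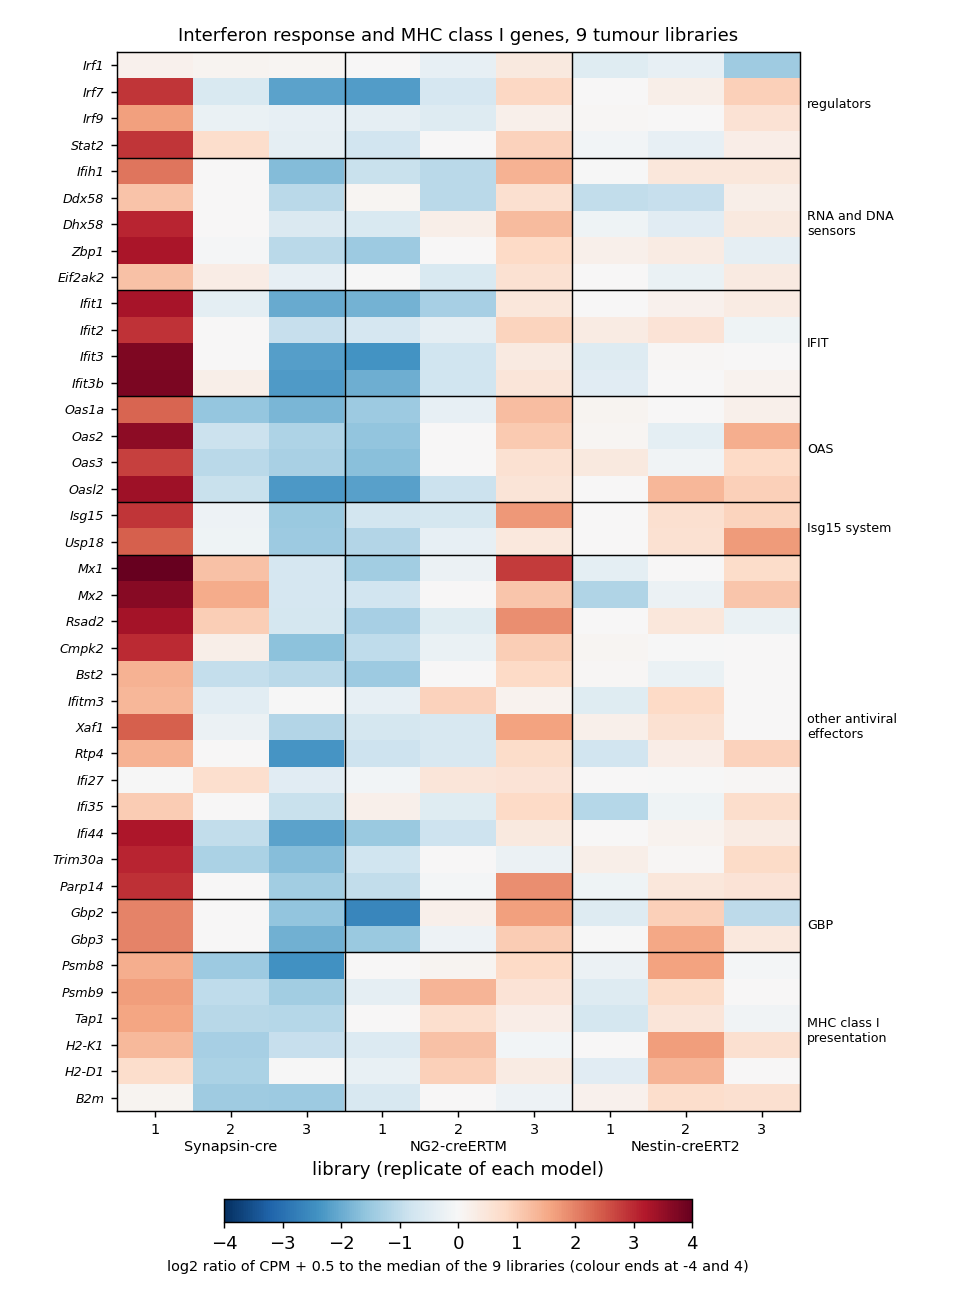
Heat map of 40 genes (rows, by role) in 9 libraries (columns, by model and replicate), coloured by the log2 ratio of CPM + 0.5 to the median of the 9 libraries. Synapsin-cre replicate 1 is the darkest red column outside MHC class I presentation and holds the highest value of 34 of 40 genes.

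Levels between genes were compared per kilobase of exon, as the mean of the 9 libraries. B2m, the light chain shared by MHC class I molecules, was highest at 432 CPM per kb. Ifitm3, a membrane protein that blocks viral entry, had 201 CPM per kb, and the MHC class I heavy chains H2-D1 and H2-K1 had 110 and 67.5 CPM per kb. Ifi27, Bst2 and Isg15 had 73.7, 63.8 and 60.6 CPM per kb. At the other end, Oas2, the immunoproteasome subunit gene Psmb9 and Oas3 had 1.99, 1.94 and 0.67 CPM per kb. The per-library values that follow are CPM, in the order of replicates 1, 2 and 3.

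Among the regulators, Irf7, Irf9 and Stat2 shared a pattern and Irf1 had another. Irf7, which amplifies type I interferon production, had 258, 22.4 and 7.52 CPM in Synapsin-cre tumours, 6.98, 21.8 and 62.8 CPM in NG2-creERTM and 34.8, 41.5 and 67.4 CPM in Nestin-creERT2 tumours. Stat2 had 258, 57.8 and 27.4 CPM in Synapsin-cre tumours, 20.7, 35.4 and 67.8 CPM in NG2-creERTM and 32.5, 28.01 and 43.1 CPM in Nestin-creERT2 tumours. Irf9, the DNA-binding partner of Stat2, had 143, 37.9 and 36.4 CPM in Synapsin-cre tumours, 35.6, 32.04 and 52.3 CPM in NG2-creERTM and 47.5, 45.7 and 68.8 CPM in Nestin-creERT2 tumours. In these 3 genes Synapsin-cre replicate 1 was above every other library, while Synapsin-cre replicates 2 and 3 lay among or below the other models. Irf1, a factor that interferon gamma induces and whose promoter stretch with a GAS match is shown above, had 42.0, 40.4 and 39.5 CPM in Synapsin-cre tumours, 37.2, 29.2 and 49.3 CPM in NG2-creERTM and 26.6, 29.8 and 13.6 CPM in Nestin-creERT2 tumours. For Irf1 the 3 Synapsin-cre libraries were close together and above the 3 Nestin-creERT2 libraries, with no overlap.

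The sensors had the same high library. Ifih1 (the RNA sensor MDA5) had 86.8, 19.4 and 5.53 CPM in Synapsin-cre tumours, 10.3, 8.998 and 51.5 CPM in NG2-creERTM and 19.3, 26.8 and 27.04 CPM in Nestin-creERT2 tumours. Eif2ak2, the kinase PKR that halts translation on binding double-stranded RNA, had 112, 60.2 and 38.9 CPM in Synapsin-cre tumours, 48.8, 31.96 and 75.4 CPM in NG2-creERTM and 49.1, 40.9 and 62.9 CPM in Nestin-creERT2 tumours. NG2-creERTM replicate 3 was the next highest for both, and the 3 models overlapped. Synapsin-cre replicate 1 over the median of the other 8 ranged from 2.29 times for Eif2ak2 to 10.5 times for Zbp1, a sensor of Z-form nucleic acid. Ddx58 (RIG-I) and Dhx58, a relative that modulates these sensors, were at 2.93 and 9.57 times.

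The IFIT genes lie side by side on chromosome 19 and encode proteins that bind viral RNA. Ifit1 had 249, 18.9 and 5.86 CPM in Synapsin-cre tumours, 6.35, 9.76 and 34.3 CPM in NG2-creERTM and 25.03, 28.3 and 31.8 CPM in Nestin-creERT2 tumours. Ifit3, whose protein binds that of Ifit1 in human cells, had 482, 35.7 and 7.34 CPM in Synapsin-cre tumours, 6.41, 20.4 and 46.4 CPM in NG2-creERTM and 24.6, 36.6 and 36.4 CPM in Nestin-creERT2 tumours. Outside Synapsin-cre replicate 1 both genes were lowest in Synapsin-cre replicate 3 and NG2-creERTM replicate 1, and the models overlapped. Over the 4 IFIT genes, Synapsin-cre replicate 1 was 7.96 to 16.2 times the median of the other 8 libraries. Ifit3 and Ifit3b are near-identical copies, so reads may be split between them and their separate levels are uncertain.

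The OAS genes encode oligoadenylate synthetases, whose product activates the RNA-degrading enzyme RNase L, and Oasl2 is a related gene. Oas2 had 47.7, 1.74 and 1.203 CPM in Synapsin-cre tumours, 0.839, 3.53 and 7.77 CPM in NG2-creERTM and 3.76, 2.604 and 10.6 CPM in Nestin-creERT2 tumours. Oasl2 had 559.9, 28.3 and 10.4 CPM in Synapsin-cre tumours, 11.4, 28.7 and 75.4 CPM in NG2-creERTM and 52.98, 134 and 103 CPM in Nestin-creERT2 tumours. Synapsin-cre replicates 2 and 3 were below the 3 Nestin-creERT2 libraries in both genes, and Synapsin-cre replicate 1 was above them. The same held for Oas1a and Oas3. Oas1a has close relatives in its cluster and its level is uncertain.

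Isg15 encodes a ubiquitin-like protein that is attached to other proteins and also secreted, and Usp18 removes it and restrains receptor signalling. Isg15 had 173, 20.2 and 7.999 CPM in Synapsin-cre tumours, 13.9, 14.1 and 79.9 CPM in NG2-creERTM and 23.5, 36.6 and 43.7 CPM in Nestin-creERT2 tumours. Usp18 had 126, 21.1 and 8.299 CPM in Synapsin-cre tumours, 10.2, 18.6 and 31.99 CPM in NG2-creERTM and 23.6, 36.4 and 78.6 CPM in Nestin-creERT2 tumours. After Synapsin-cre replicate 1 the next highest library differed between them, with NG2-creERTM replicate 3 for Isg15 and Nestin-creERT2 replicate 3 for Usp18.

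The other antiviral effectors held both the most and the least variable members. Mx1, a dynamin-like GTPase that many laboratory strains carry in a defective form, had 115, 7.61 and 1.77 CPM in Synapsin-cre tumours, 0.869, 2.59 and 24.3 CPM in NG2-creERTM and 2.23, 3.103 and 5.503 CPM in Nestin-creERT2 tumours. Its fold between the highest and the lowest library was 132, the largest of the 40 members. Rsad2 (viperin), an enzyme that makes a chain-terminating nucleotide, had 145, 28.4 and 8.33 CPM in Synapsin-cre tumours, 5.27, 9.81 and 52.4 CPM in NG2-creERTM and 14.02, 19.2 and 11.5 CPM in Nestin-creERT2 tumours. Bst2 (tetherin), which holds budding virus at the cell surface, had 143, 27.9 and 25.5 CPM in Synapsin-cre tumours, 19.2, 53.9 and 93.95 CPM in NG2-creERTM and 55.9, 44.3 and 54.6 CPM in Nestin-creERT2 tumours. Both genes were highest in Synapsin-cre replicate 1 and next highest in NG2-creERTM replicate 3.

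Ifitm3 and Ifi27 departed from this order. Ifitm3 had 266, 80.4 and 106 CPM in Synapsin-cre tumours, 84.6, 203 and 118 CPM in NG2-creERTM and 76.04, 187 and 107 CPM in Nestin-creERT2 tumours, with replicate 2 highest within NG2-creERTM and within Nestin-creERT2. Ifi27 had 95.7, 153 and 69.6 CPM in Synapsin-cre tumours, 88.3, 136 and 141 CPM in NG2-creERTM and 95.9, 95.6 and 98.4 CPM in Nestin-creERT2 tumours. Ifi27 had the smallest fold between the highest and the lowest library of the 40 members, at 2.20, and Synapsin-cre replicate 1 lay at 0.986 times the median of the other 8. Trim30a, of a mouse family with close copies that make its level uncertain, had 85.1, 3.86 and 2.71 CPM in Synapsin-cre tumours, 5.51, 9.97 and 8.34 CPM in NG2-creERTM and 11.8, 10.3 and 17.2 CPM in Nestin-creERT2 tumours. Among the remaining 8 effectors, Trim30a included, Synapsin-cre replicate 1 was highest in each, from 2.14 times the median of the other 8 for Ifi35 to 14.1 times for Mx2.

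**Figure D2:**
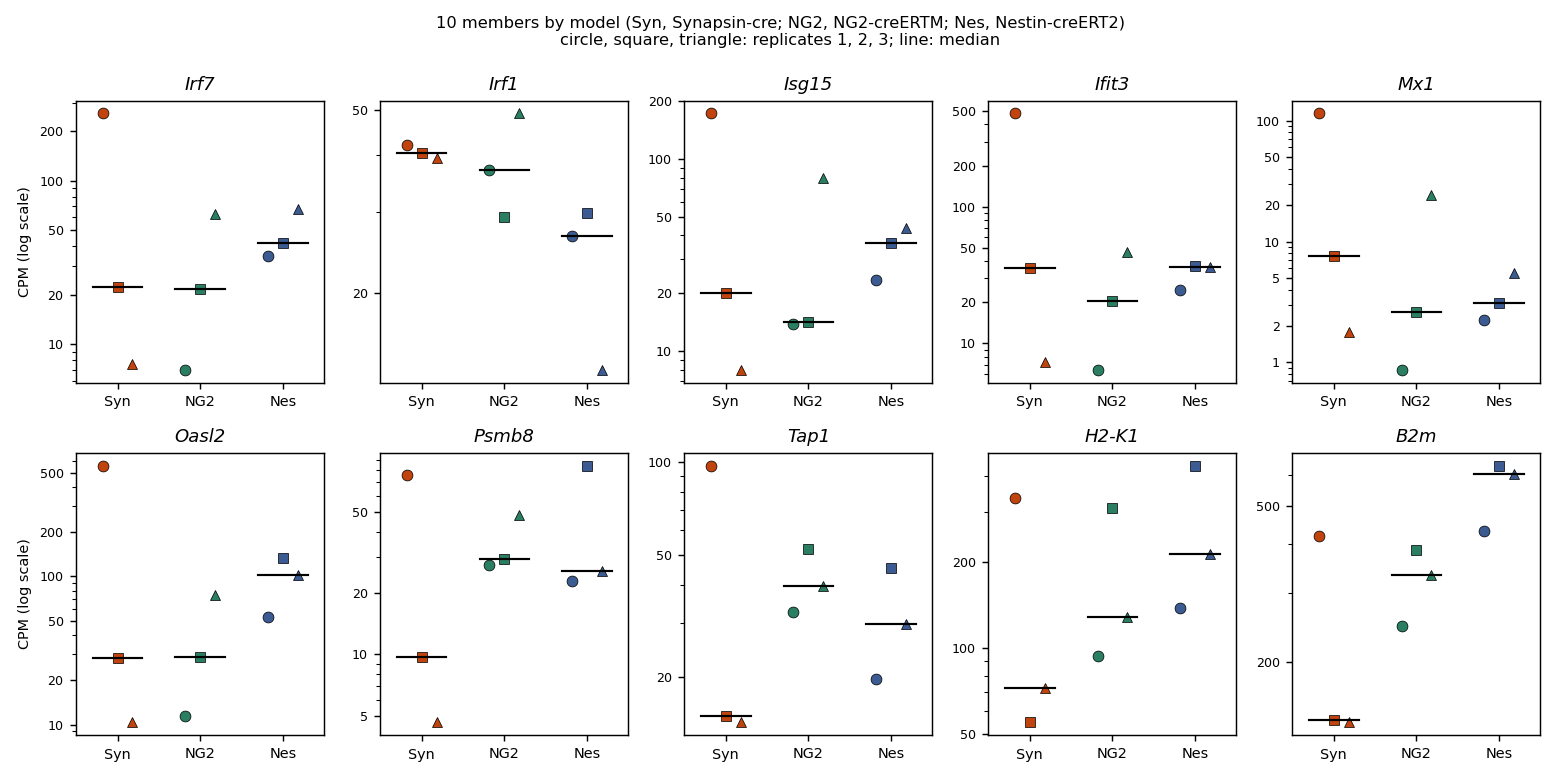
Level in CPM (log scale, a separate range per panel) of 10 members in Synapsin-cre, NG2-creERTM and Nestin-creERT2 tumours, with 1 symbol per replicate and a line at the median of 3. Synapsin-cre replicate 1 (circle) is highest for Irf7, Isg15, Ifit3, Mx1, Oasl2 and Tap1, and the 3 Nestin-creERT2 libraries are above the other 6 for B2m.

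Guanylate-binding proteins are GTPases that attack the vacuoles of intracellular microbes. Gbp2 had 144, 36.2 and 11.8 CPM in Synapsin-cre tumours, 5.57, 41.4 and 115 CPM in NG2-creERTM and 24.9, 70.04 and 17.2 CPM in Nestin-creERT2 tumours. Gbp3 had 217, 54.6 and 14.1 CPM in Synapsin-cre tumours, 19.0, 47.3 and 111 CPM in NG2-creERTM and 54.6, 161 and 72.7 CPM in Nestin-creERT2 tumours. Each model spread widely and overlapped the others in both genes, and reads may be split among relatives in this family.

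The 6 genes of MHC class I presentation were arranged differently. Psmb8, an immunoproteasome subunit, had 75.9, 9.68 and 4.66 CPM in Synapsin-cre tumours, 27.3, 29.3 and 48.2 CPM in NG2-creERTM and 22.9, 84.3 and 25.7 CPM in Nestin-creERT2 tumours. Tap1, a subunit of the peptide transporter, had 97.4, 14.95 and 14.3 CPM in Synapsin-cre tumours, 32.5, 52.4 and 39.5 CPM in NG2-creERTM and 19.8, 45.2 and 29.8 CPM in Nestin-creERT2 tumours. For both, Synapsin-cre replicates 2 and 3 were the lowest of the 9 libraries and replicate 1 was among the highest. H2-K1, a heavy chain, had 337, 55.01 and 72.2 CPM in Synapsin-cre tumours, 93.5, 311 and 129 CPM in NG2-creERTM and 138, 437 and 214 CPM in Nestin-creERT2 tumours. H2-D1, the other heavy chain, had 364, 93.5 and 225 CPM in Synapsin-cre tumours, 182, 435 and 282 CPM in NG2-creERTM and 164, 575 and 225 CPM in Nestin-creERT2 tumours. Replicate 2 was highest within NG2-creERTM and within Nestin-creERT2 for both heavy chains. B2m, at chromosome 2 from 122147686 to 122153083 on GRCm38, had 420.0, 143 and 141 CPM in Synapsin-cre tumours, 248, 387 and 333 CPM in NG2-creERTM and 433, 635 and 606 CPM in Nestin-creERT2 tumours. Its means were 234 ± 161 CPM in Synapsin-cre tumours, 322 ± 70.2 CPM in NG2-creERTM and 558 ± 109 CPM in Nestin-creERT2 tumours (SD, n = 3 each). All 3 Nestin-creERT2 libraries were above the other 6 libraries for B2m. H2-K1 and H2-D1 are highly similar to each other and to H2-Q genes. They vary between strains, so in a mixed background counted on 1 reference their separate levels are uncertain.

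Synapsin-cre replicate 1 was a median of 2.70 times the median of the other 8 libraries over these 6 genes, against 7.93 times over the other 34 members. It was the highest library for 2 of the 6 and for 32 of the 34, against 25.0% of all genes tested. Among the other 8 libraries, Synapsin-cre replicates 2 and 3 held the lowest level of all 6 genes of MHC class I presentation. Over all genes tested they held the lowest level of 13.7% and 16.2%. The plot of the group medians by library shows that the groups parted most in Synapsin-cre replicates 1 and 2 and in NG2-creERTM and Nestin-creERT2 replicates 2.

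**Figure D3:**
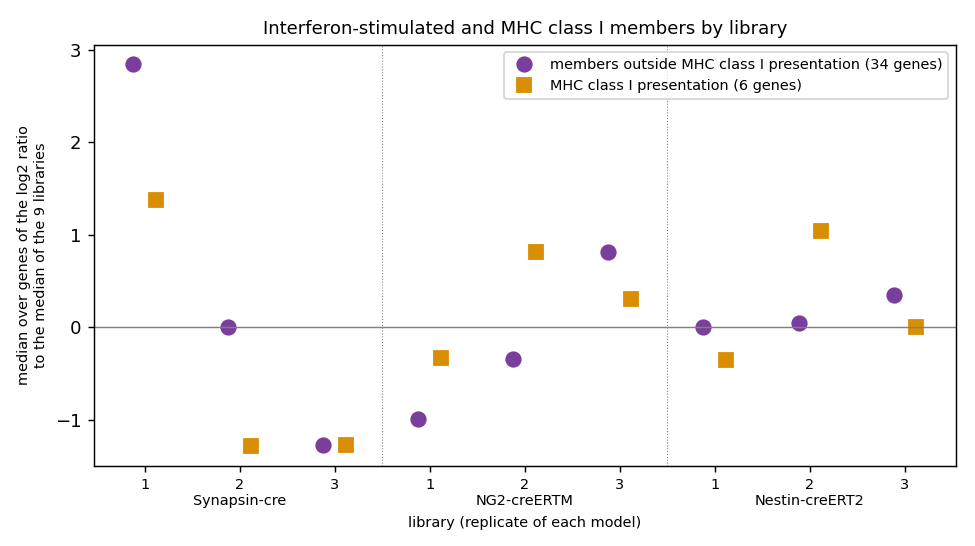
Library value of each gene as a log2 ratio to its median of 9 libraries, summarised as the median over the 34 members outside MHC class I presentation (circles) and over the 6 genes of MHC class I presentation (squares), by model and replicate. The interferon-stimulated members are at 2.85 in Synapsin-cre replicate 1 and the MHC class I genes at 1.37, and in Synapsin-cre replicate 2 the values are 0.00 and -1.29.

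Setting Synapsin-cre tumours against Nestin-creERT2 tumours asks how tumours named for a neuronal promoter differ from those named for a progenitor promoter. With all 9 libraries, 33 of the 34 members outside MHC class I presentation had positive fitted changes and 4 of the 6 within it negative ones, and 0 members passed the test. Of the 40 members, 35 had a positive and 5 a negative log2 fold change, with a median of 0.84, against 0.13 over all genes tested. The median was 1.005 over the 34 members outside MHC class I presentation and -0.53 over the 6 within it. edgeR called 0 members, and 0.0% of the genes tested, at an adjusted p under 0.05. At an unadjusted p under 0.05 there was 1 member with a positive change (Stat2) and 1 with a negative change (B2m), against 1210 and 727 genes. limma voom also called 0 genes, and DESeq2 called 497 genes and 0 of the 37 members to which it gave a p-value. In each comparison it gave none for Ifi44, Trim30a and Psmb8. The median change of the members was -0.076 under limma voom, so its sign depended on the method.

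The fitted changes were wide. B2m had a log2 fold change of -1.25 ± 0.47 (SE), with an edgeR adjusted p of 0.414. Stat2 had 1.73 ± 0.76 (adjusted p = 0.462), Mx1 3.52 ± 1.59 (adjusted p = 0.467) and Irf1 0.80 ± 0.36 (adjusted p = 0.468), each by edgeR. The models did not overlap for 1 member that was higher in Synapsin-cre, Irf1, against 8.46% of all genes. They did not overlap for 1 member that was lower in Synapsin-cre, B2m, against 6.26% of all genes.

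Without Synapsin-cre replicate 1 most members had negative fitted changes. B2m fell in Synapsin-cre relative to Nestin-creERT2 tumours, by 1.98 ± 0.34 on the log2 scale (SE, edgeR adjusted p = 0.0380), and was the 1 member called. The fit called 273 genes, 75 higher and 198 lower in Synapsin-cre, which is 1.48% of the 18481 genes then tested. Of the 40 members, 7 had a positive and 33 a negative change, with a median of -0.95, against 0.011 over all genes. The median was -1.78 over the 6 genes of MHC class I presentation, with all 6 negative. At an unadjusted p under 0.05 there were 11 members with a negative change and 0 with a positive one, against 2257 and 1725 of the 18481 genes. The next members after B2m did not pass the threshold by edgeR. Trim30a had a log2 fold change of -2.00 (adjusted p = 0.0674), Psmb8 -2.63 (adjusted p = 0.0782), H2-K1 -2.06 (adjusted p = 0.117) and Tap1 -1.12 (adjusted p = 0.161).

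The sum of 10 microglia and macrophage markers was 149 and 98.5 CPM in the 2 Synapsin-cre libraries left and 556 to 589.7 CPM in the Nestin-creERT2 libraries, and its part in these changes was not tested. In this smaller set the models did not overlap for 18 members that were lower in Synapsin-cre, against 20.9% of all genes. These included 5 of the 6 genes of MHC class I presentation, all but H2-D1, the 4 OAS genes, Isg15 and Usp18. The models did not overlap for 1 member that was higher, Irf1, against 19.4% of all genes. The plot of fitted changes shows Irf1 and Ifi27 nearly in place between the fits, while members such as Trim30a, Oas2 and Ifi44 moved from positive to negative.

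**Figure D4:**
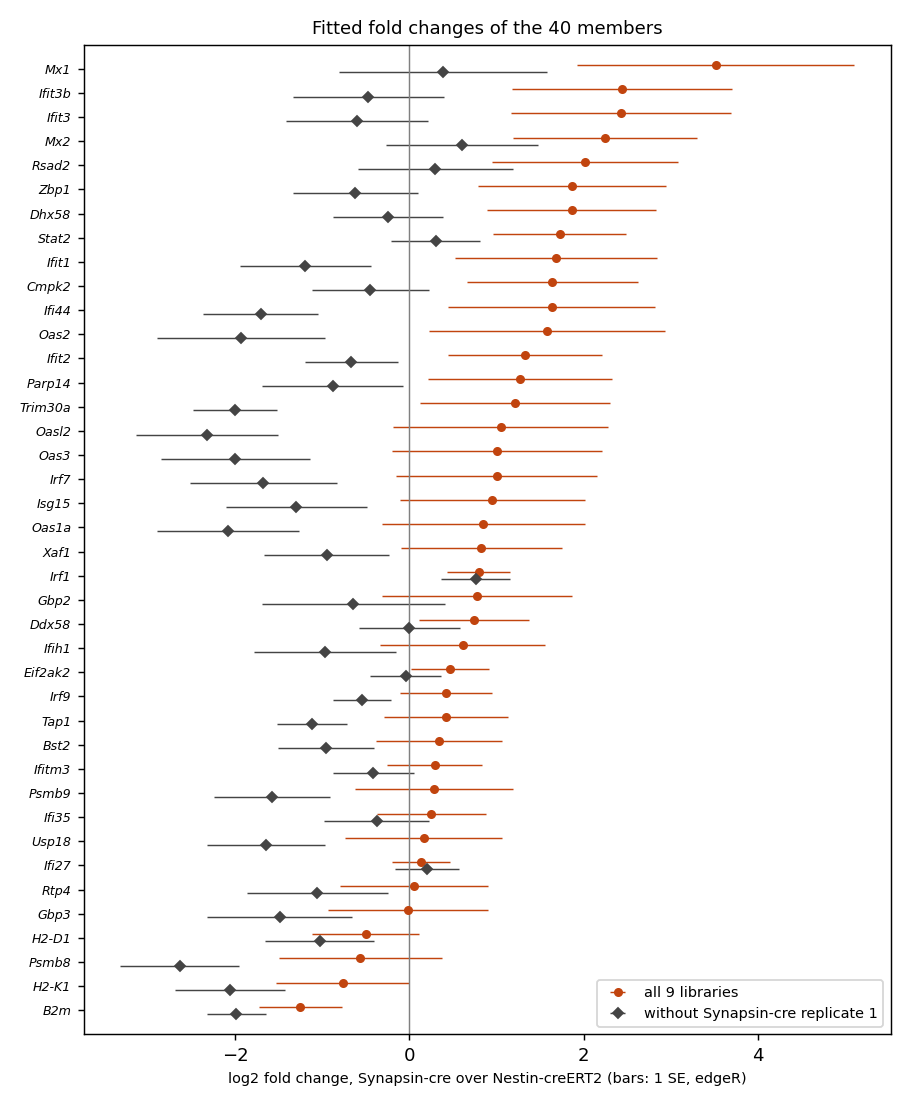
Fitted log2 fold change of the 40 members, Synapsin-cre over Nestin-creERT2 (horizontal axis, bars of 1 SE, edgeR), with all 9 libraries (circles) and without Synapsin-cre replicate 1 (diamonds). With 9 libraries 35 members are positive, and without that library 33 are negative.

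Setting Synapsin-cre tumours against NG2-creERTM tumours asks how the neuronal-promoter tumours differ from those named for a precursor and pericyte promoter. The pattern with all 9 libraries was of the same kind, and the comparison shares its Synapsin-cre libraries with the one above. Of the 40 members, 33 had a positive and 7 a negative change, with a median log2 fold change of 0.84, against 0.082 over all genes. The median was 1.32 over the members outside MHC class I presentation and -0.25 within it. edgeR called 0 members and 0.0% of the genes tested, and at an unadjusted p under 0.05 there were 0 members, against 1581 genes with a positive and 717 with a negative change. limma voom called 0 genes, and DESeq2 called 446 genes and 0 of the 37 members with a p-value. Ifit3 had the smallest p of the IFIT genes, with a log2 fold change of 2.84 ± 1.28 (SE, edgeR adjusted p = 0.392). The models did not overlap for 0 members in either direction, against 8.04% of all genes higher and 5.76% lower in Synapsin-cre.

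Without Synapsin-cre replicate 1, 3 members had a positive and 37 a negative change relative to NG2-creERTM, with a median log2 fold change of -0.87, against -0.0097 over all genes. The median over MHC class I presentation was -1.49. edgeR called 0 members, and 1 gene or 0.00541% of the genes tested. At an unadjusted p under 0.05 there were 7 members with a negative change, 5 of them in MHC class I presentation, and 0 with a positive one, against 1242 and 980 of the 18481 genes. The 2 Synapsin-cre libraries were below all 3 NG2-creERTM libraries for 7 members, B2m, H2-K1, Oas1a, Psmb8, Psmb9, Tap1 and Trim30a, against 12.9% of all genes. They were above for 0 members, against 13.5% of all genes.

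Setting NG2-creERTM tumours against Nestin-creERT2 tumours asks how the precursor and pericyte model differs from the progenitor model, and it involves no Synapsin-cre library. Members were balanced, with 20 positive and 20 negative changes and a median log2 fold change of -0.0034, against 0.016 over all genes. edgeR called 0 members and 0.0% of the genes tested. At an unadjusted p under 0.05 there were 0 members, against 992 genes with a positive and 1029 with a negative change. limma voom called 0 genes, and DESeq2 called 623 genes and 0 of the 37 members with a p-value. The smallest p among the members was that of Irf1, with a log2 fold change of 0.72 ± 0.36 (SE, edgeR adjusted p = 0.491). B2m had -0.79 ± 0.47 (edgeR adjusted p = 0.567) and Usp18 -1.19 ± 0.91 (edgeR adjusted p = 0.669).

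The models did not overlap for 0 members that were higher in NG2-creERTM, against 11.0% of all genes. They did not overlap for 2 members that were lower, B2m and Trim30a, against 14.2% of all genes. The spread within NG2-creERTM was wide, and replicate 3 was above replicate 1 in 40 of the 40 members, against 49.8% of all genes tested. Without NG2-creERTM replicate 3 the median log2 fold change of the members was -0.77, and 0 members were called. With Synapsin-cre replicate 1 left out of the shared estimate of spread, edgeR called 124 genes, 0.671% of those tested, and 0 members, with an adjusted p of 0.173 for B2m.

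Other genes of the pathway, listed by role with earlier results of these data known, gave the wider picture. Of 15 interferon genes and receptors, 6 had enough reads to test, and all 6 encode receptor chains. Ifnb1 (interferon beta) had 19 reads over the 9 libraries and Ifng (interferon gamma) had 9. Ifna1, Ifna4, Ifnl2 and Ifnl3 had 0 reads in each library. Synapsin-cre replicate 1 held 4 Ifnb1 reads and 2 Ifng reads. Synapsin-cre replicate 2 held 6 Ifnb1 reads and Nestin-creERT2 replicate 2 held 6 Ifng reads. Transcripts of the ligands were thus near the limit of detection in these counts, which leave out reads that match several places.

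The receptor genes were not highest in Synapsin-cre replicate 1. Ifnar1, a chain of the type I receptor, had 86.3, 68.8 and 58.8 CPM in Synapsin-cre tumours, 149, 65.3 and 69.9 CPM in NG2-creERTM and 51.2, 71.5 and 81.5 CPM in Nestin-creERT2 tumours. Ifngr1, a chain of the type II receptor, had 31.1, 24.99 and 41.3 CPM in Synapsin-cre tumours, 96.6, 64.1 and 57.7 CPM in NG2-creERTM and 40.6, 59.4 and 46.2 CPM in Nestin-creERT2 tumours. The 3 Synapsin-cre libraries were below the 3 NG2-creERTM libraries for Ifngr1, with an edgeR adjusted p of 0.357. DESeq2 called Ifngr1 lower in Synapsin-cre (adjusted p = 0.0378), and over 17 alternatives the adjusted p ranged from there to 0.692, with no other alternative calling it. Synapsin-cre replicate 1 was the highest library for 0 of the 6 receptor genes, against 25.0% of all genes tested. A list of 6 is too short to tell apart from that share. Over the 6, the level in that library was 0.599 to 3.56 times the median of the other 8 libraries. edgeR with all 9 libraries called 0 of the 6 in any of the 3 comparisons, and DESeq2 called 2, Ifngr1 in Synapsin-cre over NG2-creERTM and Ifnlr1 in NG2-creERTM over Nestin-creERT2. Of all 17947 genes tested, DESeq2 called 446 and 623 in these 2 comparisons, and edgeR called 0 in each.

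Genes downstream of the receptors were often highest in Synapsin-cre replicate 1, to differing degrees. Synapsin-cre replicate 1 was highest for 7 of 14 signalling genes, 7 of 11 sensors and adaptors, 36 of 39 other interferon-stimulated genes and 11 of 19 other antigen presentation genes. Over all genes tested the share was 25.0%. Its level over the median of the other 8 libraries had a median of 1.43 times for signalling genes, 2.19 for sensors and adaptors, 4.95 for other interferon-stimulated genes and 2.73 for other antigen presentation genes. Over all genes tested that median was 1.03 times. With all 9 libraries, 0 genes of these 4 lists passed the edgeR test in any of the 3 comparisons, and DESeq2 called 1, Irf8, which was higher in NG2-creERTM than in Nestin-creERT2 tumours. In that comparison DESeq2 called 623 of all 17947 genes tested, and edgeR called 0.

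Nlrc5, the transactivator of MHC class I genes, had 97.4, 14.01 and 11.2 CPM in Synapsin-cre tumours, 4.64, 39.4 and 18.7 CPM in NG2-creERTM and 10.6, 36.9 and 28.8 CPM in Nestin-creERT2 tumours. Tap2, the other transporter subunit, had 101, 13.6 and 11.2 CPM in Synapsin-cre tumours, 54.3, 30.1 and 34.9 CPM in NG2-creERTM and 35.7, 38.8 and 27.9 CPM in Nestin-creERT2 tumours. Synapsin-cre replicates 2 and 3 were the lowest libraries for Tap2, as for Tap1. Without Synapsin-cre replicate 1, 1 gene of the 4 lists passed for Synapsin-cre over Nestin-creERT2 tumours, against 1.48% of the 18481 genes then tested. The gene was Samd9l, an interferon-stimulated growth suppressor, which fell by 3.04 ± 0.58 on the log2 scale (SE, edgeR adjusted p = 0.0443). Samd9l had 87.1, 4.52 and 8.18 CPM in Synapsin-cre tumours, 22.1, 25.8 and 54.1 CPM in NG2-creERTM and 29.8, 54.9 and 70.7 CPM in Nestin-creERT2 tumours.

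Markers of other cell types also differed between libraries, and not all in the same order as these genes. In bulk tissue, fewer cells of a type and less RNA per cell cannot be told apart. The sum of 10 microglia and macrophage markers was 892, 149 and 98.5 CPM in Synapsin-cre tumours, 402, 524 and 443 CPM in NG2-creERTM and 589.7, 556 and 564 CPM in Nestin-creERT2 tumours. Synapsin-cre replicate 1 was the highest library for 7 of these 10 markers, against 25.0% of all genes tested. The others, Tyrobp, Cd68 and C1qa, were at 0.934, 1.06 and 1.37 times the median of the other 8 libraries there. Synapsin-cre replicates 2 and 3 had the lowest sums of the 10 markers. The sum of the 40 members was 6716, 1354 and 1006 CPM in Synapsin-cre tumours, 1210.0, 2177 and 2708 CPM in NG2-creERTM and 1714, 3157 and 2420.0 CPM in Nestin-creERT2 tumours. The part of these cells in the members' levels was not tested.

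The sum of 5 neuronal markers was 3634, 82.7 and 44.4 CPM in Synapsin-cre tumours, 39.7, 29.9 and 124 CPM in NG2-creERTM and 503, 446 and 529.8 CPM in Nestin-creERT2 tumours, and its part was not tested either. The sum of 4 astrocyte markers was 6800.4, 2406 and 201 CPM in Synapsin-cre tumours, 695, 3254 and 907 CPM in NG2-creERTM and 3924, 5428 and 3956 CPM in Nestin-creERT2 tumours. Both sums were highest in Synapsin-cre replicate 1. The sum of 10 T and NK cell markers was 4.03, 0.635 and 0.812 CPM in Synapsin-cre tumours, 2.37, 2.48 and 2.41 CPM in NG2-creERTM and 1.18, 5.85 and 1.31 CPM in Nestin-creERT2 tumours. Of these 10 markers, 5 were at 0 in each of Synapsin-cre replicates 2 and 3 and NG2-creERTM replicate 1, and 7 in Nestin-creERT2 replicate 3. Nestin-creERT2 replicate 2, the library with the highest H2-K1, H2-D1, B2m and Psmb8, had the highest T and NK cell sum. Cd4 alone gave 3.02 CPM of that sum, and the other 9 markers were each under 1 CPM in that library. The part of these cells was not tested. The sum of 5 oligodendrocyte lineage markers was 1240.3, 4374 and 2149 CPM in Synapsin-cre tumours, 6137, 3564 and 4232 CPM in NG2-creERTM and 1807, 3232 and 5760.5 CPM in Nestin-creERT2 tumours, and it was lowest in Synapsin-cre replicate 1. Of 4 markers of plasmacytoid dendritic cells, which make much type I interferon, Synapsin-cre replicate 1 was highest for 3, Siglech, Ccr9 and Spib. That library was highest for 25.0% of all genes tested. The remaining marker, Tcf4, was highest in Synapsin-cre replicate 2, at 500 CPM against 392 CPM in Synapsin-cre replicate 1. Siglech, which microglia also express, had 13.9, 0.0828 and 0.0902 CPM in Synapsin-cre tumours, 5.48, 0.445 and 1.09 CPM in NG2-creERTM and 1.97, 0.804 and 5.12 CPM in Nestin-creERT2 tumours. Ccr9 and Spib were under 1 CPM in every library, and the part of these lists was not tested. Synapsin-cre replicate 1 had neither the highest nor the lowest sum of endothelial, fibroblast or neutrophil markers. Markers of B cells summed to at most 0.664 CPM in any library.

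**Figure D5:**
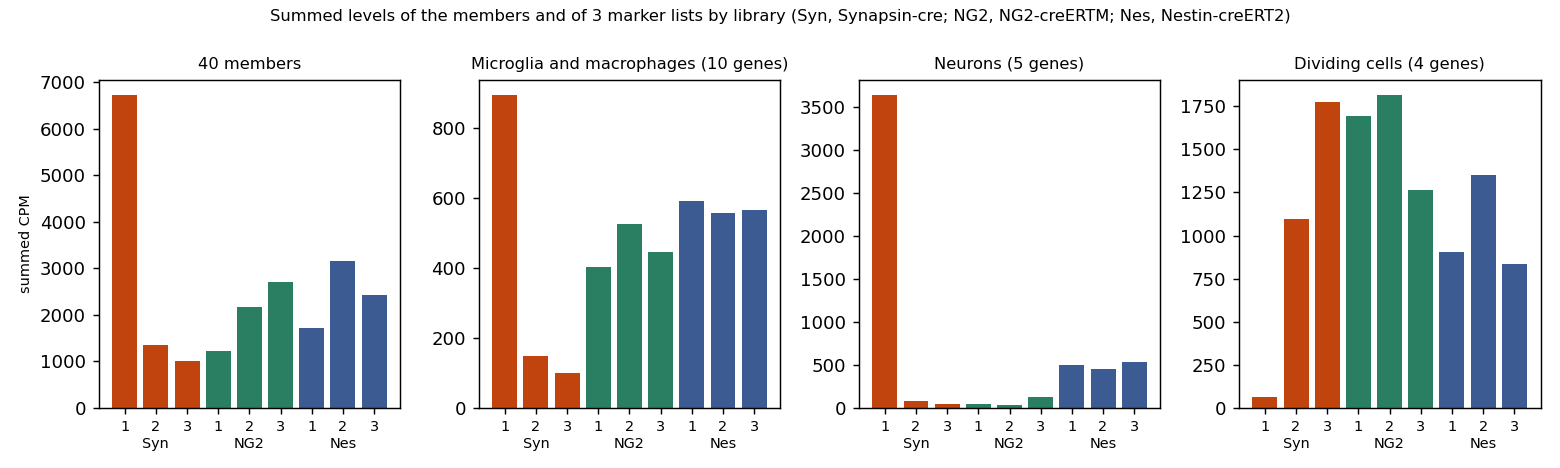
Summed CPM (bars from 0, a separate range per panel) of the 40 members and of the marker lists of microglia and macrophages, neurons and dividing cells, in each library of the Synapsin-cre, NG2-creERTM and Nestin-creERT2 models. Synapsin-cre replicate 1 has the highest sum for the members, the microglia list and the neuronal list, and the lowest for dividing cells.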

How the data were processed

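Bulk RNA sequencing gave 1 table of read counts per sample. Each deposited file gives read counts per gene. The submitters' processing notes name STAR, HTSeq and the mouse build mm10 without versions and without saying which tool made which column. Libraries followed Illumina's instructions, per the labels' protocols. The column of the strand with most reads was used, since the other strand held 3.25 to 3.64% of reads in genes. Of 46517 identifiers, 46005 matched GENCODE vM21 on GRCm38, which gave symbols, exon lengths and coordinates.

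From the counts, edgeR 4.0.16 in R 4.3.3 fitted the 3 models in all 9 libraries with TMM size factors, filterByExpr and a 2-sided quasi-likelihood test. p-values were adjusted by Benjamini-Hochberg over the 17947 genes tested, with a threshold of 0.05. Exact permutation of 3 samples against 3 cannot go below p = 0.1 and was not used. Alternatives were no filter on low counts, at least 1 CPM in 3 libraries as the filter, relative log expression factors, limma 3.58.1 voom, DESeq2 1.42.0, unstranded counts, fits of 2 models, and fits without each library. Tested on simulated data, over 10 simulations with 100 changes planted per size, edgeR recovered on average 62.6% (55 to 74%) of 16-fold and 11.1% (7 to 18%) of 4-fold changes for NG2-creERTM over Nestin-creERT2. For Synapsin-cre over Nestin-creERT2 it recovered 63.8% (52 to 76%) and 8.9% (3 to 14%), and for Synapsin-cre over NG2-creERTM 61.7% (46 to 70%) and 10.7% (5 to 15%). These simulations replaced single draws whose recovery differed. Their spread came from the fit of all 9 libraries, so they do not describe the fits without a library.

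The members, the other lists and the attention to Synapsin-cre replicate 1 were chosen with earlier results of these data known. Per-library values are given for a panel of members of every role, for the gene of smallest p in a role or list, for genes that passed, and for Ifnar1, Ifngr1, Nlrc5 and Tap2. The values of a further signalling gene are not reported here. Promoter sequences came from RefSeq (GRCm38.p6). Tables were handled in pandas 2.3.3 under Python 3.11.15 and plotted in matplotlib 3.10.9.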

Additional observations from a re-analysis of the deposited data

How the results depend on the processing

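With all 9 libraries 0 members passed in any comparison, and 0 passed under each alternative size factor, filter, tool or strand choice and with 2 models fitted, where DESeq2 gave a p-value to 37 of the 40. The exception arose without Synapsin-cre replicate 1, where 1 member (B2m) passed for Synapsin-cre over Nestin-creERT2, also in the fit of 2 models (1 member), both near the threshold. Of 150 alternative values of the counts and medians, 127 stayed close to the value reported and 23 moved. A count was held close when equal or within a set ratio, and most counts of members called were 0 in both fits. A median was held close when it shifted by less than the SD of library medians within the models compared. For Synapsin-cre that margin includes the spread due to replicate 1, so a median could change sign, as under limma voom, and still be held close. Genes called numbered 0 in each comparison, against 12 in NG2-creERTM over Nestin-creERT2 and 12 in Synapsin-cre over Nestin-creERT2 with no filter, and 623, 497 and, for Synapsin-cre over NG2-creERTM, 446 with DESeq2. They numbered 237 and 5 in the first 2 of these comparisons with 2 models fitted, and 1 in Synapsin-cre over Nestin-creERT2 with unstranded counts. With 2 models and without Synapsin-cre replicate 1 they numbered 431 for Synapsin-cre over Nestin-creERT2 and 1 for Synapsin-cre over NG2-creERTM.

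Leaving out each library in turn gave 0 to 124 genes called for NG2-creERTM over Nestin-creERT2, 0 to 273 for Synapsin-cre over Nestin-creERT2 and 0 to 1 for Synapsin-cre over NG2-creERTM, and 0 to 1 members called for Synapsin-cre over Nestin-creERT2. The members' median log2 fold change then ranged from -0.77 to 0.31, from -0.95 to 1.25 and from -0.87 to 1.88 in these comparisons. With 2 models and without Synapsin-cre replicate 1 it was -0.95 for Synapsin-cre over Nestin-creERT2 and -0.90 over NG2-creERTM.

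Of 252 alternative fold changes of named genes, 11 changed sign. For Synapsin-cre over Nestin-creERT2 without 1 library, Psmb8 ranged from -2.63 to 0.29, Trim30a from -2.00 to 1.67, Ifit3 from -0.60 to 2.90 and Tap1 from -1.12 to 0.76. With 2 models and without Synapsin-cre replicate 1, Trim30a was at -2.00, Ifit3 at -0.59 and Tap1 at -1.11. Under limma voom Trim30a was at -0.62 and Tap1 at -0.25. For Synapsin-cre over NG2-creERTM, Ifit3 ranged from -0.18 to 3.69 without 1 library, and was at -0.22 with 2 models and without Synapsin-cre replicate 1. The cause of these changes was not tested beyond the library left out.

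No paired analysis was possible because the labels give no replicate numbers shared between models. With 3 samples per model and a common biological coefficient of variation of 0.612 over all 9 libraries, changes of a few fold were mostly not detectable in that fit. The value includes the spread due to Synapsin-cre replicate 1 and does not describe the fits without that library. Psmb8, Ifi35, Usp18 and Dhx58 kept 58.3, 72.4, 85.6 and 87.4% of their reads in the unstranded counts, and the members' median was 100.05%. Whether overlapping genes on the other strand account for these losses was not tested.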

Other observations

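Several other genes of the pathway had patterns of their own, given here as values. Ifnlr1, a chain of the type III interferon receptor, had 4.69, 8.0 and 0.451 CPM in Synapsin-cre tumours, 5.09, 1.75 and 13.03 CPM in NG2-creERTM and 0.881, 0.471 and 0.453 CPM in Nestin-creERT2 tumours. The 3 NG2-creERTM libraries were above the 3 Nestin-creERT2 libraries, with an edgeR adjusted p of 0.329. DESeq2 called it (adjusted p = 0.0164), and over 16 alternatives the adjusted p ranged from there to 0.716, with no other alternative calling it. Adar, an enzyme that edits adenosine in double-stranded RNA and so limits its sensing, had 391, 119 and 134 CPM in Synapsin-cre tumours, 81.3, 74.4 and 87.3 CPM in NG2-creERTM and 137, 149.8 and 122 CPM in Nestin-creERT2 tumours. All 3 Synapsin-cre libraries were above all 3 NG2-creERTM libraries for Adar, with an edgeR adjusted p of 0.357. Irf8, a factor of myeloid cells, had 35.5, 34.1 and 31.7 CPM in Synapsin-cre tumours, 42.3, 38.6 and 43.3 CPM in NG2-creERTM and 28.5, 23.5 and 20.04 CPM in Nestin-creERT2 tumours, and the models NG2-creERTM and Nestin-creERT2 did not overlap (edgeR adjusted p = 0.359). DESeq2 called Irf8 (adjusted p = 0.0366), and over 16 alternatives the adjusted p ranged from there to 0.717, with no other alternative calling it.

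Ifi44l, chosen after its values were seen, had 43.5, 0.635 and 0 CPM in Synapsin-cre tumours, 0.1199, 0.0262 and 0.0248 CPM in NG2-creERTM and 0, 0.0554 and 0.0476 CPM in Nestin-creERT2 tumours. Cxcl10, an interferon-induced chemokine also chosen after its values were seen, had 189.7, 6.35 and 9.02 CPM in Synapsin-cre tumours, 2.098, 33.6 and 23.9 CPM in NG2-creERTM and 39.3, 121 and 29.7 CPM in Nestin-creERT2 tumours. Synapsin-cre replicate 1 was the highest library for both, and Nestin-creERT2 replicate 2 was the next highest for Cxcl10.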
